A study of Mus musculus with 12 samples.

Results

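The transcription factors that give neurons of the cerebral cortex their layer identity were followed in lupus-prone mice through every probe whose gene name on the array was Cux1, Cux2, Rorb, Fezf2, Bcl11b, Tbr1, Foxp2, Etv1 or Neurod6. These 9 genes had 19 of the 39429 non-control probes, and 14 of the 19, covering 8 genes, were bright enough in all 12 mice to be tested. The 5 probes left out were all 4 of Foxp2 and 1 of 3 of Cux1. Cortex RNA of 4 mice in each of 3 groups was hybridized to 6 two-colour Agilent arrays. MRL/lpr mice carry the Fas lpr mutation on the MRL background, a standard model of systemic lupus with brain involvement. Fn14ko mice, labelled Fn14koMRL, carry the same lpr background and also lack Tnfrsf12a (Fn14), the receptor of the cytokine TWEAK, throughout the body, and were littermates of the MRL/lpr mice. MRL/+ mice (MRL/MpJ) are the background strain without lpr and were bought from a separate breeder. All mice were female, about 12 weeks old and in diestrus, so both lpr groups share the Fas mutation and differ from MRL/+ also in their origin. In the minced cortex, a change in the number of neurons of a layer and a change in RNA per neuron cannot be told apart.

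Excitatory neurons of the cortex are arranged in layers, and each layer is marked by a small set of transcription factors that are switched on when the neuron is born and are kept, at a lower level, in the adult. Cux1 and Cux2, homeodomain proteins of the upper layers, control dendrites and spines of neurons that project within the cortex. Rorb is a nuclear receptor of layer 4, the layer that receives thalamic input. Fezf2 and Bcl11b (also called Ctip2) are zinc finger proteins that specify the layer 5 neurons projecting to brainstem and spinal cord, and Etv1 is an ETS factor of layer 5. Tbr1, a T-box protein, and Foxp2, a forkhead protein, mark layer 6, and Neurod6 is a basic helix-loop-helix protein of most excitatory neurons of cortex and hippocampus. Several of these factors mark other cells as well: Bcl11b is also a factor of striatal projection neurons and of hippocampal neurons, and Foxp2 of striatal neurons.

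The probes are 60 bases long, and 6 genes had 2 tested probes each. The first 30 bases of the probes that passed the test in a comparison, and of the second probe of each such gene, are given as the array files hold them, because the results below differ between probes of one gene.
Cux1 A_52_P442676: tccatgatttgagttctgcttgcttcttta
Cux1 A_55_P1955427: tgccatctaatggcttcagagcgataatac
Cux2 A_66_P122699: gatctgcaaacagatccgtccactccacat
Cux2 A_55_P1955861: aaataaagaaatatttatagacctctttca
Rorb A_66_P118699: tggtgggcgctcccatgtcaccagcacagc
Rorb A_55_P2290388: cctgagtggggctcttttgtttgttcgttt
Bcl11b A_51_P171772: acatgtgagtactgcggcaaggtcttcaag
Bcl11b A_52_P925277: tttattaccttttctattacgtatcgtatg
Tbr1 A_55_P2112584: ccactgagaatcgttttgttttctgctcgt
Tbr1 A_55_P2405129: ttaacatttctggtctcgatcccaccgctc
Etv1 A_55_P1986321: gactctgacttactctaacggatcaaaaga
Etv1 A_66_P135185: tcacaggccagtagcattttatgtatctgg
Neurod6 A_51_P394997: agggacaaaaataagtgtattcagttggta
Positions below are those of mm9 in the array files, and exon or UTR annotation of that build was not used here.

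A few properties of the arrays touch these genes. Every group had its own slide, and a difference between slides cannot be told apart from one between groups. The mice numbered 1 and 3 were labelled with Cy3 and those numbered 2 and 4 with Cy5, and a Cy3 and a Cy5 mouse of the same group shared an array. The Cy5 channels of MRL/+ stood apart, with 35.0% and 21.2% of spots called well above background where the other channels had at least 56.6%, and the dark control spots stood 6.88 and 6.66 times over the local background there, against at most 2.75 times. A dim probe therefore had a raised floor in these 2 mice. For the called member probes and the layer, projection neuron and inhibitory neuron lists, values against MRL/+ are also given without them. For the other lists, the hippocampus among them, they are not given except for Aif1 and Barhl1. The low end of the probes was raised in some Cy3 mice as well: the 10th percentile of all unmarked probes was 0.337 in MRL/+ replicate 1 and 0.237 in Fn14ko replicate 1, against 0.0697 in MRL/+ replicate 3 and 0.0480 in Fn14ko replicate 3. Tnfrsf12a was lower in Fn14ko (0.694 ± 0.0786, SD, n = 4) than in MRL/lpr (1.68 ± 0.246, SD, n = 4), with a limma adjusted p of 0.00351, but it was still detected in Fn14ko. Signal is in units of the median spot of each mouse, and levels are compared between groups for 1 probe and never between probes.

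In MRL/lpr against MRL/+, the upper layer factor Cux2, the layer 4 factor Rorb and the layer 6 factor Tbr1 were upregulated at 1 probe each, as was the Cux1 locus at a probe that may report another of its products. The layer 5 factors Bcl11b and Etv1 and the factor Neurod6 were downregulated at 1 probe each, Etv1 only at a probe near the floor and not at its bright probe (0.42 on the log2 scale). Against MRL/+, 7 of the 14 tested probes passed the limma test (adjusted p under 0.05), 4 higher and 3 lower, where 15.0% of all 22419 tested probes did (5.69% higher and 9.30% lower). Against Fn14ko, 4 of the 14 passed, 2 higher and 2 lower, where 4.03% of all probes did (2.27% higher and 1.76% lower). All 4 of these, in Cux2, Rorb, Bcl11b and Neurod6, had also passed against MRL/+ in the same direction. The comparisons share the MRL/lpr mice. Between Fn14ko and MRL/+, 0 of the 14 passed, where 1.09% of all probes did (0.227% higher and 0.865% lower). At an unadjusted p under 0.05 in that comparison, limma counted 6 of the 14, against 23.0% of all probes. The methods' t-test, run here on log2 signal without the fold-change cut-off that the paper also required, counted 3. Its share of all probes is not given. Without the filter on dim spots, which raised the number of probes tested to 38661, limma no longer called Neurod6 (adjusted p = 0.0584), Cux1 (0.0746) and the Etv1 probe (0.146) against MRL/+, nor Cux2 (0.0567) against Fn14ko. Other settings added calls against Fn14ko, but the share of all probes called under each is not given for that comparison. Background subtraction, the processed signal and loess each called Tbr1 A_55_P2112584 (adjusted p = 0.0124, 0.0214 and 0.0102), Bcl11b A_52_P925277 (0.0191, 0.00901 and 0.0371), Cux2 A_55_P1955861 (0.0103, 0.00521 and 0.00522) and Etv1 A_66_P135185 (0.0323, 0.0433 and 0.0340), in the directions given below.

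**Figure D1:**
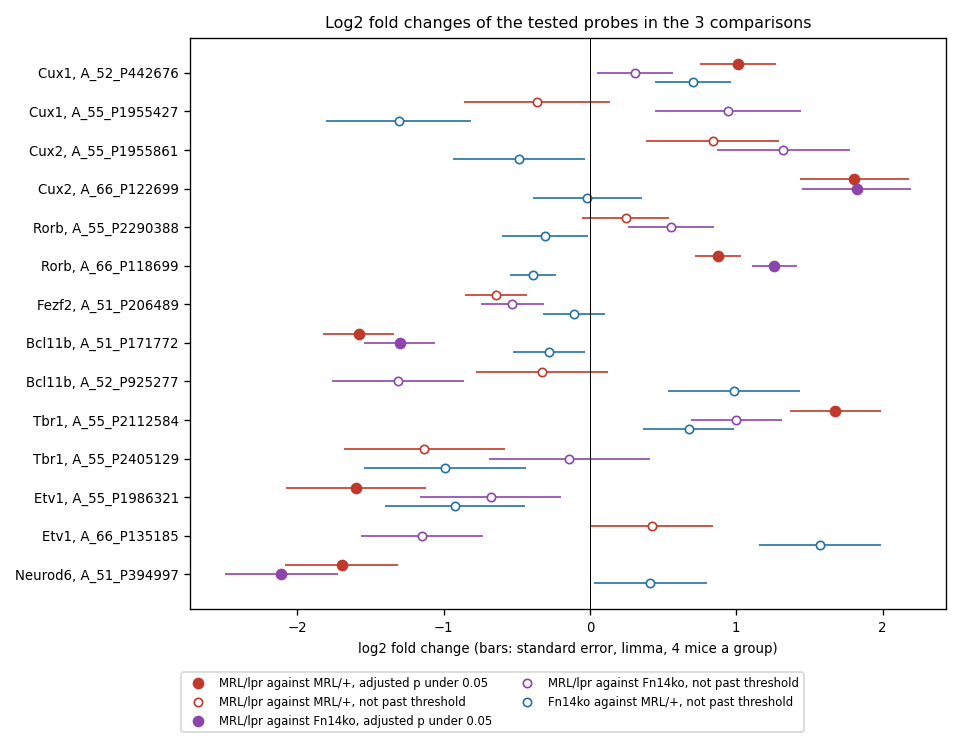
Log2 fold changes of the 14 tested probes (x axis) in the 3 comparisons, with bars for the standard error of the limma fit over 4 mice a group. Filled points passed the threshold: 7 in MRL/lpr against MRL/+, 4 in MRL/lpr against Fn14ko and 0 in Fn14ko against MRL/+.

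Cux2 rose in MRL/lpr against both other groups. Its probe A_66_P122699 (chr5:122308503-122308562, minus strand) read 0.744, 0.864, 1.02 and 1.61 in MRL/+ replicates 1 to 4. In MRL/lpr it read 2.64, 3.09, 4.17 and 4.63, and Fn14ko read 0.856, 0.844, 1.83 and 0.761. Every MRL/lpr mouse lay above every mouse of both other groups, while Fn14ko and MRL/+ overlapped over nearly their whole range. MRL/lpr exceeded MRL/+ by 1.81 on the log2 scale (SE 0.37, a 3.50-fold difference, adjusted p = 0.00808 by limma) and Fn14ko by 1.82 (SE 0.37, 3.54-fold, adjusted p = 0.0148 by limma). The Cy3 mice gave 1.93 and the Cy5 mice 1.68 against MRL/+, and leaving out the MRL/+ Cy5 mice gave 2.14. Against Fn14ko the adjusted p rose to at most 0.0655 when 1 mouse was left out, for Fn14ko replicate 2 or MRL/+ replicate 3. The second Cux2 probe, A_55_P1955861, lies 1.72 kb away and is dim. It read 0.564 to 0.723 in MRL/lpr, 0.161 to 0.588 in MRL/+ and 0.157 to 0.342 in Fn14ko. Its log2 differences, 0.84 against MRL/+ (adjusted p = 0.193 by limma) and 1.32 against Fn14ko (adjusted p = 0.141 by limma), had the sign of the brighter probe and did not pass the threshold.

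Cux1 gave a different answer at each of its probes. The brightest, A_52_P442676 (chr5:136724181-136724240, minus strand), is annotated to transcript variant 2 of the gene. The Cux1 locus also encodes CASP, a Golgi protein without the homeodomain, and the array files do not say which protein this probe reports. It read 2.35, 2.65, 2.07 and 1.62 in MRL/+ and 4.95, 5.69, 2.95 and 4.18 in MRL/lpr, with no overlap. Fn14ko lay between and touched MRL/lpr, at 3.69, 3.50, 3.97 and 2.91. The difference of MRL/lpr from MRL/+ was 1.01 on the log2 scale (SE 0.26, 2.02-fold, adjusted p = 0.0223 by limma). That call was lost without the MRL/+ Cy5 mice (0.94, adjusted p = 0.112), without MRL/+ replicate 4 alone (adjusted p = 0.120) and with the scanner software's processed signal (adjusted p = 0.103). It was also lost when both tested probes of the gene were averaged (0.63, adjusted p = 0.0965), and was kept in 4 of the 8 other settings that gave a value. Fn14ko exceeded MRL/+ by 0.71 (SE 0.26, adjusted p = 0.155 by limma), and its 4 mice also lay above all 4 of MRL/+. The probe for variant 3, A_55_P1955427, 26 kb away, read 1.58 and 2.23 in the MRL/+ Cy5 mice but 0.489 and 0.321 in the MRL/+ Cy3 mice. Its difference of MRL/lpr from MRL/+ was -0.36 with all mice and 0.52 without the MRL/+ Cy5 mice, and neither passed. In Fn14ko against MRL/+ it was -1.31 (SE 0.50, adjusted p = 0.163 by limma), and it passed without MRL/+ replicate 3 (-1.75, adjusted p = 0.0444), under background subtraction (0.0285) and without the array block (0.0386). The probe for variant 1, A_52_P680751, was well above background in 0 of 4 mice of each lpr group and in 2 of 4 of MRL/+, and was not tested.

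Rorb, the layer 4 factor, also rose against both groups, with the smallest standard error of the 14 probes. Probe A_66_P118699 (chr19:19006883-19006942, minus strand) read 0.773, 0.928, 0.833 and 0.924 in MRL/+. MRL/lpr read 1.61, 1.59, 1.32 and 1.84, and Fn14ko 0.675, 0.702, 0.601 and 0.662. None of the 3 groups overlapped, with MRL/lpr highest and Fn14ko lowest. MRL/lpr was 0.87 above MRL/+ (SE 0.16, 1.83-fold, adjusted p = 0.00367 by limma; 0.90 without the MRL/+ Cy5 mice) and 1.26 above Fn14ko (SE 0.16, 2.40-fold, adjusted p = 0.000892 by limma) on the log2 scale. Both differences stayed past the threshold in each of the 12 fits that left out 1 mouse and in the 8 other settings that gave a value. Fn14ko was 0.39 below MRL/+ (SE 0.16, adjusted p = 0.178 by limma), which did not pass although the groups were apart. The second Rorb probe, A_55_P2290388, 5.27 kb away, was dimmer, and its groups overlapped (0.302 to 0.589 in MRL/+, 0.392 to 0.588 in MRL/lpr, 0.258 to 0.450 in Fn14ko). Its log2 difference of MRL/lpr from MRL/+ was 0.24 (SE 0.29, adjusted p = 0.559 by limma).

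**Figure D2:**
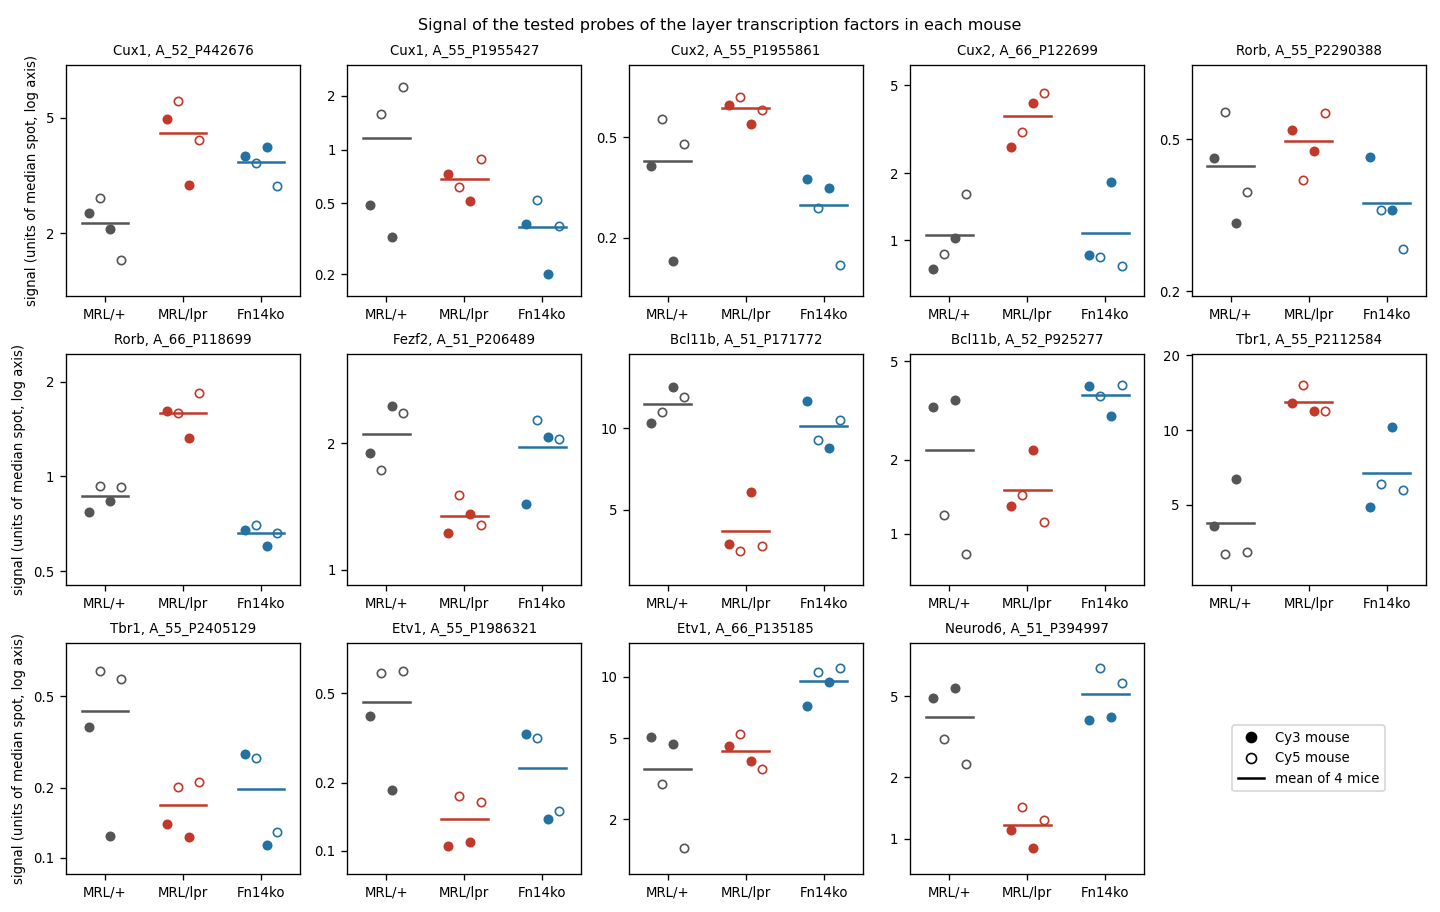
Signal of each tested probe in each mouse (log axis, units of the median spot), with Cy3 mice filled, Cy5 mice open and a line for the mean of 4 mice. MRL/lpr stands apart from both other groups at Cux2 A_66_P122699, Rorb A_66_P118699, Bcl11b A_51_P171772, Tbr1 A_55_P2112584 and Neurod6, and at several dim probes the MRL/+ Cy5 mice are the highest.

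Of the layer 5 factors, Bcl11b was downregulated at its brighter probe, whereas Fezf2 moved the same way without passing the test. Bcl11b probe A_51_P171772 (chr12:109153847-109153906, minus strand) read 10.5, 11.5, 14.2 and 13.1 in MRL/+. MRL/lpr read 3.73, 3.51, 5.80 and 3.68, and Fn14ko 12.6, 9.05, 8.45 and 10.7. Each MRL/lpr mouse was below all 8 others, and MRL/+ and Fn14ko overlapped. The log2 difference of MRL/lpr was -1.58 from MRL/+ (SE 0.24, 2.99-fold lower, adjusted p = 0.00171 by limma) and -1.30 from Fn14ko (SE 0.24, 2.46-fold lower, adjusted p = 0.00918 by limma). It was -1.39 in the Cy3 mice and -1.77 in the Cy5 mice against MRL/+, and -1.47 without the MRL/+ Cy5 mice. Against Fn14ko the call was lost without MRL/+ replicate 4 (adjusted p = 0.0543), a mouse that enters that comparison only through the shared spread. The second Bcl11b probe, A_52_P925277, lies 4.92 kb away. It read 3.27 and 3.48 in the MRL/+ Cy3 mice but 1.20 and 0.826 in the MRL/+ Cy5 mice, with 1.12 to 2.18 in MRL/lpr and 2.99 to 4.02 in Fn14ko. MRL/lpr lay below Fn14ko in every mouse there (log2 difference -1.31, SE 0.45, adjusted p = 0.141 by limma), while against MRL/+ the groups overlapped (-0.33, SE 0.45, adjusted p = 0.610 by limma).

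Fezf2, represented by probe A_51_P206489 (chr14:13175057-13175116, minus strand), read 1.90, 1.73, 2.46 and 2.36 in MRL/+ and 1.23, 1.51, 1.36 and 1.28 in MRL/lpr. Fn14ko read 1.44, 2.28, 2.08 and 2.06. The MRL/lpr mice were below all MRL/+ mice and overlapped Fn14ko through a single mouse, its replicate 1. The log2 difference was -0.64 from MRL/+ (SE 0.21, adjusted p = 0.0580 by limma) and -0.53 from Fn14ko (SE 0.21, adjusted p = 0.213 by limma). The first passed under background subtraction (-0.75, adjusted p = 0.00362), the processed signal (-0.74, 0.0294), loess (-0.82, 0.00317) and without the array block (0.0159), and also when Fn14ko replicate 1 (0.0272), Fn14ko replicate 4 (0.0480) or MRL/+ replicate 2 (0.0270) was left out. It did not pass without the MRL/+ Cy5 mice (-0.80, adjusted p = 0.110).

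Etv1 had a bright and a dim probe, 1.57 kb apart, that ordered the groups differently. At the bright one, A_66_P135185 (chr12:39593054-39593113, plus strand), Fn14ko was the high group, at 7.18, 10.5, 9.43 and 11.03. MRL/lpr read 4.56, 5.22, 3.87 and 3.52, and MRL/+ 5.08, 2.96, 4.66 and 1.43. All Fn14ko mice lay above all 8 others. Fn14ko exceeded MRL/+ by 1.57 on the log2 scale (SE 0.42, 2.97-fold, adjusted p = 0.0828 by limma) and MRL/lpr was 1.15 below Fn14ko (log2 difference -1.15, SE 0.42, adjusted p = 0.162 by limma), and neither passed the threshold. MRL/lpr and MRL/+ overlapped there (0.42, SE 0.42, adjusted p = 0.464 by limma). The difference of Fn14ko from MRL/+ passed under background subtraction (adjusted p = 0.0133) and loess (adjusted p = 0.0248), without the array block (0.0133), and when Fn14ko replicate 1 (0.0332), MRL/+ replicate 1 (0.0423) or MRL/+ replicate 3 (0.0444) was left out. It was 0.76 in the Cy3 mice against 2.39 in the Cy5 mice. Without the MRL/+ Cy5 mice it was 0.85 (adjusted p = 0.369). The dim probe, A_55_P1986321, read 0.106 to 0.175 in MRL/lpr and 0.186 to 0.628 in MRL/+, and was well above background in 2 of 4 mice of each. It passed against MRL/+ (log2 difference -1.60, SE 0.48, adjusted p = 0.0413 by limma), but the call was lost in 9 of the 12 fits with 1 mouse left out and without the MRL/+ Cy5 mice (-1.18, adjusted p = 0.302).

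Tbr1, the layer 6 T-box factor, was upregulated at its bright probe. Probe A_55_P2112584 (chr2:61652093-61652152, plus strand) read 4.10, 3.16, 6.38 and 3.21 in MRL/+. MRL/lpr read 12.8, 15.2, 11.9 and 11.9, and Fn14ko 4.88, 6.03, 10.3 and 5.72. The MRL/lpr mice were all above both other groups, and Fn14ko and MRL/+ overlapped. MRL/lpr was 1.68 above MRL/+ (SE 0.31, 3.20-fold, adjusted p = 0.00441 by limma) and 1.00 above Fn14ko (SE 0.31, 2.00-fold, adjusted p = 0.102 by limma) on the log2 scale. Without the MRL/+ Cy5 mice the first value was 1.37 (adjusted p = 0.0603), and without Fn14ko replicate 3, the highest mouse of that group, the second passed (adjusted p = 0.0483). The other Tbr1 probe, A_55_P2405129, 8.04 kb upstream in the direction of transcription, was close to the floor. It read 0.639 and 0.590 in the MRL/+ Cy5 mice, where a 10th of all unmarked probes read at or below 0.521 and 0.331, and 0.123 to 0.212 in MRL/lpr. Its log2 difference of MRL/lpr from MRL/+ was -1.13 (SE 0.55, adjusted p = 0.155 by limma) and passed without MRL/+ replicate 3 (-1.58, adjusted p = 0.0178), the MRL/+ mouse with the lowest reading.

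Foxp2, the other layer 6 factor, was not measurable here. None of its 4 probes was well above background in any MRL/+ mouse, and in the lpr groups at most 2 of 4 mice were well above background at any of them. Signals ranged from 0.0572 to 0.554 in MRL/+, from 0.0487 to 0.293 in MRL/lpr and from 0.0544 to 0.329 in Fn14ko, and in MRL/+ the highest value of each probe was that of a Cy5 mouse. No fold is given.

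Neurod6, the factor shared by most excitatory neurons, had the largest fall of the 14 probes in both comparisons of MRL/lpr. Probe A_51_P394997 (chr6:55628006-55628065, minus strand) read 4.90, 3.09, 5.52 and 2.32 in MRL/+. MRL/lpr read 1.11, 1.44, 0.896 and 1.24, and Fn14ko 3.82, 6.89, 3.98 and 5.83. No MRL/lpr mouse reached the lowest mouse of either other group, although MRL/+ was itself split by dye. The log2 difference of MRL/lpr was -1.70 from MRL/+ (SE 0.39, 3.24-fold lower, adjusted p = 0.0132 by limma) and -2.11 from Fn14ko (SE 0.39, 4.31-fold lower, adjusted p = 0.00835 by limma). Against MRL/+ it was -2.39 in the Cy3 mice and -1.01 in the Cy5 mice, and -2.46 without the MRL/+ Cy5 mice. Fn14ko and MRL/+ overlapped (0.41, SE 0.39, adjusted p = 0.476 by limma).

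At a single probe, the exact permutation test over the 70 divisions of 8 mice cannot give less than 0.0286, and this value was reached by every probe whose groups did not overlap. That held for 8 of the 14 probes in MRL/lpr against MRL/+, where 24.8% of all probes were apart, for 8 against Fn14ko (19.5% of all probes) and for 3 in Fn14ko against MRL/+ (14.0% of all probes). Within dyes, with 2 mice against 2, all 7 probes called against MRL/+ and all 4 called against Fn14ko had the same sign in Cy3 and in Cy5. Of all 14 tested probes, called or not, 11 had the same sign against MRL/+ and 12 against Fn14ko. The calls came from a fit to the same mice, so the shared sign is no separate evidence for them. All 6 genes with 2 tested probes had 1 that passed against MRL/+ and 1 that did not.

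**Figure D3:**
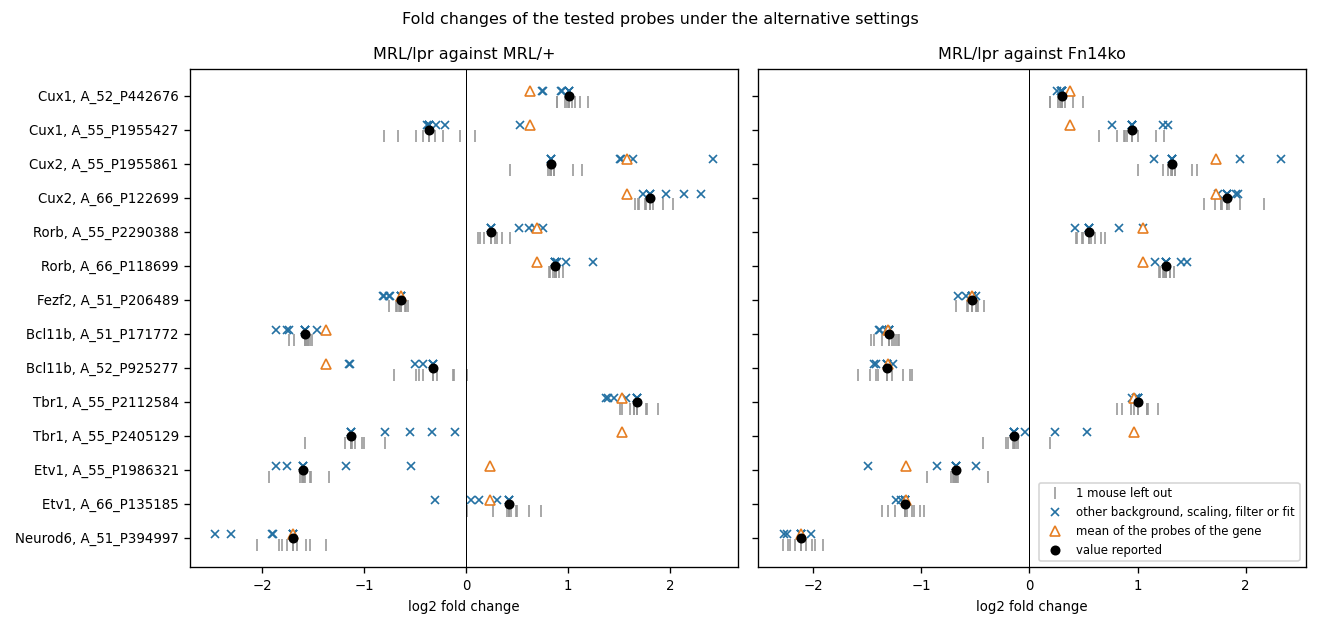
Log2 fold changes of the 14 tested probes under the alternative settings for MRL/lpr against MRL/+ (left) and against Fn14ko (right). Black points are the values reported, crosses other corrections, scalings, filters and fits, ticks fits with 1 mouse left out, and triangles the mean over the probes of the gene, which lies near the brighter probe and so crosses 0 for Cux1 A_55_P1955427 and the dim probes of Tbr1 and Etv1 on the left.

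Other genes of the same layers were likewise mixed. Of 16 listed upper layer genes, 15 were tested at 20 probes, and 4 rose and 1 fell in MRL/lpr against MRL/+, at 1 probe each. Of all tested probes, 5.69% were higher and 9.30% lower in that comparison, and 2.27% and 1.76% in MRL/lpr against Fn14ko. Lamp5, a membrane protein of superficial neurons, went from 1.82 ± 0.301 to 11.5 ± 2.89 (SD, n = 4; log2 difference 2.64, adjusted p = 0.000961 by limma), and Rspo1, a secreted activator of Wnt signalling, from 0.645 ± 0.145 to 2.35 ± 0.824 (SD, n = 4; 1.84, adjusted p = 0.00284 by limma). Mef2c and Otof rose as well, and the adhesion protein gene Mdga1 fell (-1.28, adjusted p = 0.0275 by limma). Without the MRL/+ Cy5 mice 2 of the 20 probes were higher and 2 lower, and without the filter on dim spots 2 and 0 of 23. In these 2 fits 1138 of all 22419 and 930 of all 38661 probes passed against MRL/+. Against Fn14ko, Lamp5 (1.93), Rspo1 (1.87), Pou3f2 and Mef2c were higher and Mdga1 lower. The median log2 difference over the list's 20 probes was -0.08 against MRL/+ and 0.24 against Fn14ko, beside -0.15 and -0.08 over all probes.

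Of 20 listed deep layer genes, 18 were tested, and 3 rose and 4 fell in MRL/lpr against MRL/+. Sox5, a factor of subplate and deep layer neurons, rose from 9.41 ± 3.50 to 34.1 ± 5.89 (SD, n = 4; log2 difference 1.92, adjusted p = 0.00216 by limma). Pcp4 and Id2 also rose. Crym, a thyroid hormone-binding protein, fell from 19.0 ± 6.31 to 3.02 ± 1.44 (SD, n = 4; -2.70, adjusted p = 0.00235 by limma), and Nfib, a nuclear factor of deep layer neurons, fell at 2 probes (-1.54 and -0.76). Zfpm2 and Tle4 fell too. By probe these are 3 higher and 6 lower of 30, beside 5.69% and 9.30% of all probes. Without the MRL/+ Cy5 mice they were 2 and 5, where 1138 of all 22419 probes passed in either direction. Without the filter on dim spots they were 2 and 3 of 40, where 2.41% of all probes passed. Against Fn14ko, Sox5 was higher (1.34) and Zfpm2 (-1.43 and -1.03) and Crym (-3.01) were lower, and in Fn14ko against MRL/+ a probe of Nfib was lower (-0.95, adjusted p = 0.0343 by limma). The list median was -0.24 against MRL/+ and -0.04 against Fn14ko.

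Among 14 genes of excitatory projection neurons in general, tested at 24 probes, 4 rose and 6 fell in MRL/lpr against MRL/+, at 1 probe each. Of all probes 5.69% were higher and 9.30% lower. Without the MRL/+ Cy5 mice 1 probe was higher and 1 lower, where 1138 of all 22419 probes passed in either direction. Without the filter on dim spots 1 of 25 was higher and 0 were lower, where 2.41% of all probes passed. The vesicular glutamate transporter Slc17a7 fell from 25.5 ± 4.34 to 12.2 ± 2.66 (SD, n = 4; log2 difference -1.08, adjusted p = 0.00968 by limma), the dim one of 2 Camk2a probes went from 1.10 to 0.547 (-1.02, adjusted p = 0.00556 by limma), and the transcription factor Mef2d rose by 1.14 at 1 of its probes (adjusted p = 0.00514 by limma). The bright Camk2a probe read 7.85 in MRL/+ and 9.59 in MRL/lpr (0.30, adjusted p = 0.420 by limma). By limma 0 of the list's 24 probes passed against Fn14ko, where 4.03% of all probes did (list median -0.01). At an unadjusted p under 0.05 it was 8 of the 24, beside 17.3% of all probes. With the processed signal 2 were higher and 3 lower, and 1 was lower when the MRL/+ Cy5 mice were left out of the shared spread. The dim Camk2a probe was also lower in Fn14ko than in MRL/+ (-1.02, adjusted p = 0.0306 by limma). For the 8 inhibitory neuron genes, Vip rose (1.26) and Dlx2 fell against MRL/+. Slc32a1, the vesicular transporter of GABA, was lower at its dim probe (0.824 in MRL/+ and 0.278 in MRL/lpr, -1.55), while its bright probe read 10.2 and 14.8 in the same order and did not pass (0.68, adjusted p = 0.182 by limma). Of the 10 inhibitory neuron probes 1 was higher and 2 lower against MRL/+, and 1 and 1 without the MRL/+ Cy5 mice.

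Some markers of the neighbouring hippocampus were low in MRL/lpr, as were Bcl11b and Neurod6. Both genes are expressed in the hippocampus, and the hippocampus list (Prox1, C1ql2, Dsp, Fibcd1 and Wfs1, 6 probes) was low in MRL/lpr except for Wfs1, which is also expressed in upper cortical layers, and a second probe of Dsp. Only C1ql2 and Wfs1 passed the filter on dim spots, so the others are given from the fit without that filter, in which 2.41% of all 38661 probes passed against MRL/+ and 0.905% against Fn14ko. Between Fn14ko and MRL/+, 0 of the 6 probes passed in that fit, where 0.0207% of all probes did. C1ql2, a synaptic protein of dentate granule cells, read 0.173 to 0.225 in MRL/lpr, 1.18 to 1.32 in MRL/+ and 0.650 to 1.03 in Fn14ko. Its log2 difference was -2.64 from MRL/+ (adjusted p = 5.28e-05 by limma with the filter) and -2.08 from Fn14ko (adjusted p = 0.000270 by limma with the filter). Prox1, the transcription factor of dentate granule cells, read 0.0988 to 0.183 in MRL/lpr, 0.626 to 0.747 in MRL/+ and 0.333 to 0.547 in Fn14ko. Dsp, at A_51_P101460, read 0.0861 to 0.162, 0.909 to 1.52 and 0.864 to 2.08 in the same order, and Fibcd1, a gene of CA1 neurons, 0.0892 to 0.148, 0.497 to 1.15 and 0.503 to 0.652. These 3 probes passed against MRL/+ and against Fn14ko, and MRL/lpr overlapped neither group at them. In MRL/lpr, Dsp was well above background in 1 of 4 mice and Prox1 and Fibcd1 in 2 of 4 each, in MRL/+ in 3, 2 and 2 of 4, and in Fn14ko in 4 of 4 each, so these MRL/lpr values lie near the floor and no size of the difference is given. The second Dsp probe was well above background in no mouse. Wfs1 read 14.7 to 20.5 in MRL/lpr and 11.9 to 26.6 in MRL/+ and did not pass (-0.13). The part of hippocampal tissue in the Bcl11b and Neurod6 results was not tested.

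**Figure D4:**
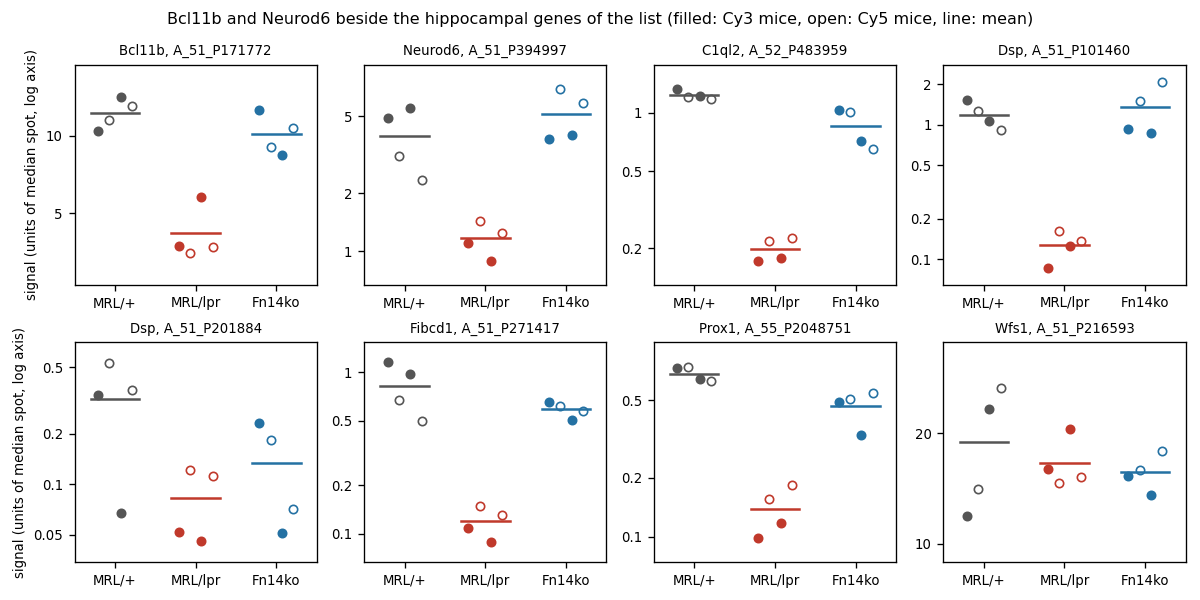
Signal per mouse (log axis, units of the median spot; filled Cy3, open Cy5, line the mean) of Bcl11b A_51_P171772 and Neurod6 beside the 6 probes of the hippocampus list, whether tested or not. MRL/lpr is apart from and below both other groups at Bcl11b, Neurod6, C1ql2, Dsp A_51_P101460, Fibcd1 and Prox1, and overlaps them at Wfs1.

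For the other tissues that share these factors, 0 of 11 striatal genes passed in any comparison (15 probes, limma). At an unadjusted p under 0.05, 5 of the 15 were counted against MRL/+, 1 in MRL/lpr against Fn14ko and 4 in Fn14ko against MRL/+. Of all probes, 35.8%, 17.3% and 23% were counted in the same order. The summed striatal signal was 16.1 to 27.6 in MRL/+, 25.6 to 49.0 in MRL/lpr and 19.98 to 198.5 in Fn14ko. The thalamic gene Prkcd, a protein kinase C, was lower in MRL/lpr at both of its probes. The log2 differences were 2.01 and 2.14 below MRL/+ and 1.91 and 1.69 below Fn14ko. The thalamic genes Tcf7l2 and Rgs16 did not pass against MRL/+ (-0.18, adjusted p = 0.63, and 0.42, adjusted p = 0.28, by limma) or against Fn14ko (0.01 and -0.29). The summed signal of the 4 thalamic probes, 2 of them of Prkcd, was 3.15 to 3.82 in MRL/lpr, 6.43 to 10.5 in MRL/+ and 5.53 to 9.42 in Fn14ko. That sum therefore largely follows Prkcd. Among glial genes in MRL/lpr against MRL/+, 1 of 3 probes of Gfap (-1.16, the dim one) and 1 of 2 of Mbp (-1.75) fell while Aif1 (1.17) rose, and the cerebellar gene Barhl1 fell (-0.77). Neither Aif1 nor Barhl1 passed without the MRL/+ Cy5 mice. By limma 0 of 6 choroid plexus probes passed. At an unadjusted p under 0.05, 2 were counted in each comparison with MRL/lpr, beside 35.8% of all probes against MRL/+ and 17.3% against Fn14ko. The part of any of these in the results was not tested.

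The gene whose log2 signal ran most closely with each of the 4 probes called in both comparisons was found over the 12 mice, after the group means and the dye difference were removed. It was Opalin for Cux2 (Pearson r = 0.97), Camkk2 for Rorb (r = 0.93), Klhl13 for Bcl11b A_51_P171772 (r = 0.92) and Pgk1 for Neurod6 (r = 0.99). Each is the highest of 22405 values and shares arrays, dyes and scaling with the probe it was matched to.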

How the data were processed

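Cortex RNA of 12 mice was profiled on 6 arrays, each holding 2 mice of a group, and groups were taken from the deposited labels. The deposited files are the output of Agilent Feature Extraction 12.1.0.3 (per the file headers), which holds, for every spot and dye, a mean foreground intensity and the median intensity of the local background, not yet normalized, with quality marks and a processed signal. By the file headers, the deposited processed signal is the intensity after background subtraction and dye normalization. The software's own log ratios and their p-values compare 2 mice of one group and were not used.

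Of 43020 non-control spots, 1952 were removed because the software had marked them as non-uniform or outlying in some channel, together with all spots that in at least 1 of the 12 samples did not reach 2 times their local background. Background was corrected with normexp (offset 50) in limma 3.58.1 under R 4.3.3, signals were scaled to the median over the 24255 spots kept in each channel, and the mean over the spots of a probe was taken to log2. All 22419 probes were fitted in limma with a dye term, the array as a random block (correlation 0.32) and a variance trend. P-values are 2-sided and adjusted by Benjamini-Hochberg over all probes, with a threshold of 0.05. The 2-sided exact permutation test used the 70 divisions of 8 mice into 4 and 4. Over all probes, the log2 fold changes had a median SE of 0.27, and the number of arrays limits the precision. On simulated data with 200 of 22419 probes changed between MRL/lpr and MRL/+, 35% of changes of 1 log2 unit and 88% of changes of 2 were recovered, and 7 of the 130 calls were wrong. The simulated noise was independent between probes, without slide differences between groups or raised floors. Far fewer probes were changed than were called in the data, so these rates need not hold there.

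The members, gene lists, tests and alternatives were chosen with earlier results of these data known. All members and each of their probes are named, of each list and comparison the 3 genes with the smallest adjusted p past the threshold, Tnfrsf12a, and the gene most like a member probe. The other list genes were named after their values were seen, and 1 result that the rule would name is not reported here. Alternatives were background subtraction, the processed signal, loess, other filters on dim spots, and fits without the array block or with a replicate block. Others were the mean over a gene's probes, the methods' t-test without the fold-change cut-off, and mice left out. Figures were drawn with Python 3.11.15 and matplotlib 3.10.9.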

Additional observations from a re-analysis of the deposited data

Results flagged for a closer look

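In 42 groups of 4 mice (14 tested probes in 3 groups), the gap between an extreme mouse and its nearest neighbour was compared with the range of the group. In 2 of them the gap exceeded Dixon's critical value, where chance gives about 1 group in 20. At Cux2 A_66_P122699, Fn14ko replicate 3 read 1.83 and the next highest mouse of the group 0.856, a gap of 0.911 of the range, and it was still below all MRL/lpr mice. At Bcl11b A_51_P171772, MRL/lpr replicate 3 read 5.80 and the next highest mouse of the group 3.73, a gap of 0.902 of the range, and it was still below all mice of both other groups.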

How the results depend on the processing

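Against MRL/+, 7 member probes passed with all mice, 4 of them higher. The count was 4 without the MRL/+ Cy5 mice, 4 of 19 without the filter on dim spots, 3 of 5 with spots well above background in all samples and 4 by the methods' t-test after Benjamini-Hochberg. It was 5 to 8 with 1 mouse left out. Background subtraction and loess gave 10 each and the processed signal 9. Of all 22419 probes, 3361 passed in the main fit, 7086 under background subtraction, 6850 with loess and 3977 with the processed signal. The array-wide number was 1138 without the MRL/+ Cy5 mice, 1758 by the t-test after Benjamini-Hochberg and 1027 to 7462 with 1 mouse left out. Without the filter 930 of 38661 passed, and 1257 of 8089 with spots well above background. A change in the member count alone is therefore no result about these genes. Against Fn14ko, 4 member probes passed, and the member count was 10 under background subtraction, 9 with the processed signal, 8 with loess, 8 without the array block, 2 of 5 with spots well above background only, 11 by the t-test unadjusted and 3 to 5 with 1 mouse left out. For Fn14ko against MRL/+, 0 passed, and the count was 3 under background subtraction, 1 with loess, 2 without the array block, 3 by the t-test unadjusted and 0 to 3 with 1 mouse left out. A replicate block gave 8, 5 and 1 in the same order, and called 7560 of all 22419 probes in MRL/lpr against MRL/+. In the main fit 4.03% of all probes passed in MRL/lpr against Fn14ko and 1.09% in Fn14ko against MRL/+. Array-wide numbers under the alternatives are not given for these comparisons, so their changes in member count are no result about these genes either. Same-numbered mice of different groups correlated between -0.29 and 0.46. Mice of different numbers were not correlated for reference, so these values cannot decide whether the numbers pair the mice.

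Of the 11 calls, 1 turned its direction under any setting: the dim Etv1 probe, 0.23 with the probes of a gene averaged. That averaging also turned probes that did not pass: Tbr1 A_55_P2405129 to 1.53 (MRL/lpr against MRL/+), 0.97 (MRL/lpr against Fn14ko) and 0.56 (Fn14ko against MRL/+), Cux1 A_55_P1955427 to 0.63 and 0.25 against MRL/+ for MRL/lpr and Fn14ko, and, for Fn14ko against MRL/+, Etv1 A_55_P1986321 to 1.37 and Bcl11b A_52_P925277 to -0.0705. Without the MRL/+ Cy5 mice, MRL/lpr against MRL/+ turned to 0.52 for Cux1 A_55_P1955427 and -0.30 for Etv1 A_66_P135185, and Fn14ko against MRL/+ to -0.35 for Neurod6, 0.32 for Cux2 A_66_P122699 and 0.19 for Cux2 A_55_P1955861. With the processed signal, Fn14ko against MRL/+ turned to 0.39 and 0.10 for these Cux2 probes and to -0.0399 for Neurod6. Tbr1 A_55_P2405129 in MRL/lpr against Fn14ko turned to 0.53 with the processed signal and 0.24 under background subtraction, which also gave Cux2 A_66_P122699 0.0279 in Fn14ko against MRL/+. Loess turned that comparison to 0.33 for Rorb A_55_P2290388 and 0.37 for Cux2 A_55_P1955861.

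With 1 mouse left out, differences that crossed 0 ranged from -0.36 to 0.20 for Cux2 A_66_P122699 and from -0.23 to 0.0382 for Fezf2 in Fn14ko against MRL/+, from -0.81 to 0.0865 for Cux1 A_55_P1955427 and from -0.71 to 0.0095 for Bcl11b A_52_P925277 in MRL/lpr against MRL/+, and from -0.42 to 0.19 for Tbr1 A_55_P2405129 in MRL/lpr against Fn14ko. None of these passed in the fit with all mice. The cause of these changes was not tested. The median log2 difference of all probes from MRL/+ was -0.15 for MRL/lpr and -0.14 for Fn14ko, -0.01 and 0.03 with loess, and -0.74 and -0.77 without the filter on dim spots. Probes near the floor of the MRL/+ Cy5 channels limit what can be said of Foxp2 and of the dim probes of Tbr1 and Etv1. Leaving out the MRL/+ Cy5 mice does not remove every raised floor: the 10th percentile of unmarked probes was 0.337 in MRL/+ replicate 1 (Cy3) and 0.331 in replicate 4 (Cy5).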
